A study of Mus musculus with 288 samples.

Results

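The immunoproteasome and MHC class I genes Psmb8, Psmb9, Psmb10, Psme1, Psme2, Tap1, Tapbp, B2m, H2-K1 and H2-D1 were followed in mouse bone marrow-derived macrophages. These 10 genes were taken by name, with earlier results of these data known. All were found among the 23481 genes of the deposited UMI table. Of the 10, 9 passed the filter on low counts for the test over all conditions. Marrow of C57BL/6 mice aged 12 weeks was grown for 7 days in M-CSF medium, and no line, transgene or deletion is named in the labels. Cells were pretreated with DMSO, the solvent control, with dCA at 100 nM or with BRD-6989 at 1 µM. Both dCA and BRD-6989 are labelled as inhibitors of CDK8, a kinase of the Mediator complex. A pretreatment time of 24 h is recorded for dCA and BRD-6989, and none for DMSO. Cells were then left unstimulated (NoStim) or given 1 of 11 stimuli for 15, 30, 45, 60, 90, 120, 150 or 180 min. The stimuli, spelled as in the labels, were LPS, MDP_LPS, Poly(I:C), SeV, CpG, R848, Pam3cys, FLA, Zymosan, TDB and MDP. Each combination of pretreatment, condition and time was 1 well, 96 wells for each pretreatment, and the labels name no separate cultures or animals. In tests on summed wells, p-values measure how an inhibitor effect varies between conditions, or a stimulus effect between pretreatments. In unstimulated cells they measure the spread between single wells. No p-value covers a spread between cultures or animals. All 96 wells of a pretreatment share 1 Nextera barcode in the labels, so the inhibitor and the library pool cannot be told apart. Well codes in the labels give a condition the same number, and a time the same letter, in every pretreatment. A stimulus and its well number, or a time and its well letter, therefore cannot be told apart.

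Proteasomes cut cytosolic proteins into peptides, and interferons induce a variant, the immunoproteasome, in which Psmb8, Psmb9 and Psmb10 replace the catalytic subunits Psmb5, Psmb6 and Psmb7. Psme1 and Psme2 encode the alpha and beta chains of the PA28 cap that opens the core particle. Tap1 encodes a chain of the transporter that carries peptides into the endoplasmic reticulum, and Tapbp encodes tapasin, which holds the class I molecule beside that transporter. H2-K1 and H2-D1 encode classical class I heavy chains of the C57BL/6 mouse, and B2m encodes the light chain they share. Interferon signals reach such genes through the interferon-stimulated response element (ISRE), read by IRF factors, and through the GAS element. Class I promoters are also textbook targets of NF-kappaB and of NLRC5.

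Promoters are shown for Psmb8, Tap1, B2m, H2-K1 and H2-D1, as examples with and without the elements named above. H2-K1 and H2-D1 carry the same set. Each line gives the 250 bases before a start site, 5′ to 3′ on the gene's strand, from RefSeq on GRCm38.p6 (mm10), with matches in capitals. Capitals mark the ISRE core GAAANNGAA or its other reading GAANNGAAA, the GAS letters TTCNNNGAA and the kappaB core GGGATTCCC, searched on both strands. GAANNGAAA and GGGATTCCC were added after the sequences had been read.
Psmb8, chr17:34197945-34198194, forward strand: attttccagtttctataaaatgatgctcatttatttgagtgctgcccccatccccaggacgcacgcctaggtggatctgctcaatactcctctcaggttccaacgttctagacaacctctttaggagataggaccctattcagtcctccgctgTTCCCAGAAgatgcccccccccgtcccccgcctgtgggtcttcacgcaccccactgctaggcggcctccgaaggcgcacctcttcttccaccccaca
Tap1, chr17:34187306-34187555, forward strand: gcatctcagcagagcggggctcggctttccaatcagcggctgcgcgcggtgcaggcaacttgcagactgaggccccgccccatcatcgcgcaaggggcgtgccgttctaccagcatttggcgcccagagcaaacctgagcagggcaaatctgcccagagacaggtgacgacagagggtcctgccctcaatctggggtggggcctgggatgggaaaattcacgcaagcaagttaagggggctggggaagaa
B2m, chr2:122147437-122147686, forward strand: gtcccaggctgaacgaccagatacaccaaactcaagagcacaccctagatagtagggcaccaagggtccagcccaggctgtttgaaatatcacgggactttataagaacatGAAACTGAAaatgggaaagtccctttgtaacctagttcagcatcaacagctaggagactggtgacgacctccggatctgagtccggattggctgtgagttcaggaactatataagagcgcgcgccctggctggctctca
H2-K1, chr17:34000348-34000597, reverse strand: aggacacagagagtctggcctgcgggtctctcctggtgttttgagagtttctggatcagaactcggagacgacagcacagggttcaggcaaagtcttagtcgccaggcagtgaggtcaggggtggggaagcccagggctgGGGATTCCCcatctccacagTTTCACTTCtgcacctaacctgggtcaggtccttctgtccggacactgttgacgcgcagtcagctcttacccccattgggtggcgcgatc
H2-D1, chr17:35262844-35263093, forward strand: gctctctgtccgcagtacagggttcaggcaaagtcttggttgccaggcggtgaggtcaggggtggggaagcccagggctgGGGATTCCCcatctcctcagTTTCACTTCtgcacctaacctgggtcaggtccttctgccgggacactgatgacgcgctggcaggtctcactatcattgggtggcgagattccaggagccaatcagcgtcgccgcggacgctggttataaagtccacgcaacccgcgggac

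Matches were counted in the table's windows of 300 bases, 250 before and 50 after each start site. GAAANNGAA occurred in 8.56% of all 32851 windows and, among the 10 genes, in those of Psme1 and B2m, where it lay 139 to 131 bases before the B2m start. GAANNGAAA occurred in 7.52% of all windows and in those of Psme1, H2-K1 and H2-D1, and in Psme1 it overlapped the first match. Psmb8 was the 1 member with TTCNNNGAA, read there as TTCCCAGAA at 97 to 89 bases before the start, against 8.3% of all windows. GGGATTCCC was in the windows of H2-K1 and H2-D1 and in 0.353% of all windows. In both class I promoters it stood just upstream of the ISRE match and within a stretch of 47 bases that both genes share letter for letter, which ends before the ISRE match. H2-K1 has a further annotated start, whose window holds the same matches, and the printed start lies inside the annotated gene. TATAAA was found in 4 members' windows (Psmb8, B2m, H2-K1 and H2-D1) and in 13.6% of all windows. Tap1 and Psmb9 are read away from each other from starts 225 bases apart, so the Tap1 line also holds most of the Psmb9 promoter, and none of the 5 motifs was found in it. A match is a description of letters, not a measured binding site.

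Of the 10 genes, 6 lie on chromosome 17, the chromosome of the mouse MHC, and Psmb9 (chromosome 17, 34182030 to 34187330), Tap1 (chromosome 17, 34187556 to 34197225) and Psmb8 (chromosome 17, 34198195 to 34201454, GRCm38.p6) follow each other there. H2-K1 (chromosome 17, 33996012 to 34000619), H2-D1 (chromosome 17, 35263094 to 35267497) and Tapbp (chromosome 17, 33919478 to 33929290) complete the group. The other members are B2m (chromosome 2, 122147687 to 122153082), Psmb10 (chromosome 8, 105935728 to 105938392), Psme1 (chromosome 14, 55578494 to 55581527) and Psme2 (chromosome 14, 55587440 to 55591101). H2-K1, H2-D1 and the H2-Q and H2-T genes are near-identical in parts, as are Psme2 and Psme2b, so reads could be assigned to the wrong copy. B2m overlaps Patl2, Psme1 overlaps Emc9 and Tapbp overlaps Gm19412 in RefSeq, and how reads of overlapping genes were counted is not given in the sources used here.

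Transcripts were counted at their 3′ ends as distinct random barcodes (UMI), and a level is given as counts per 1000000 UMI of the same library (CPM), leaving out Rn45s, the ribosomal RNA precursor. The 8 times of each pretreatment and condition were summed into 36 libraries of 227325 to 449471 UMI, 12 for each pretreatment. Single wells held 21810 to 70797. The macrophage label was borne out by 11 of 12 marker genes in the table, whose summed level was between 6819 and 10605 CPM in all 36 libraries. Markers of T cells, NK cells, dendritic cells and fibroblasts summed to at most 68.0, with Cd3e, Ncr1, Flt3 and Dcn at 0, and all 5 erythroid markers were at 0. The Rn45s share of UMI differed between pretreatments, with means of 52.7% ± 6.88 for DMSO wells, 49.0% ± 7.04 for dCA wells and 43.6% ± 6.75 for BRD-6989 wells (SD, n = 96 wells each). The summed level of 7 of 8 neutrophil markers was also highest in DMSO, between 15.3 and 61.6 CPM against 0 to 13.3 in dCA and 0 to 9.15 in BRD-6989, with Elane at 0. Dendritic cell markers had a median of 23.8 CPM in DMSO, 12.9 with dCA and 14.9 with BRD-6989, and macrophage markers one of 8211, 7424 and 7413. The Rn45s share entered an alternative setting of the inhibitor test as a covariate, with its outcome given below. The part of the marker shifts in the results below was not tested. In bulk wells, fewer cells that express a gene and less RNA per cell cannot be told apart.

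The first comparison asked how each inhibitor changed the 10 genes across the 12 conditions. With dCA, 5 of the 9 tested genes fell and none rose. With BRD-6989, 8 of 9 fell and none rose. Among all 5691 genes tested, 8.12% fell with dCA and 10.5% with BRD-6989. The members were chosen with earlier results of these data known, so these shares are not an independent comparison for them. The median log2 change of the 9 genes was -0.32 with dCA and -0.59 with BRD-6989, beside -0.01 and 0.00 over all genes. Both comparisons use the same DMSO libraries. Log2 changes are given ± SE, and adjusted p-values come from edgeR's quasi-likelihood test with the condition as a block and Benjamini-Hochberg adjustment over all genes tested, with 0.05 as the threshold.

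Psmb8, which encodes the LMP7 subunit with chymotrypsin-like activity, had levels from 206 to 347 CPM in DMSO (median 279), 117 to 221 with dCA (median 147) and 80.9 to 192 with BRD-6989 (median 146). No BRD-6989 library reached the lowest DMSO library, whereas dCA overlapped DMSO. The share of all genes whose ranges part in this way was not counted. Psmb8 fell by 0.75 ± 0.13 (adjusted p = 1.23e-05) with dCA and fell by 0.94 ± 0.13 (adjusted p = 8.61e-08) with BRD-6989 on the log2 scale. It was lower than in DMSO in 11 of 12 conditions with dCA, Zymosan being the exception, and in 12 of 12 with BRD-6989. The call held under all 23 alternative settings for both inhibitors.

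Psmb9, the LMP2 subunit, had only 266 UMI in all and did not pass the filter. Its levels ran from 8.8 to 61.2 CPM in DMSO (median 35), 3.29 to 43.9 with dCA (median 13.8) and 3.12 to 35.8 with BRD-6989 (median 18.5), and the groups overlapped. Over the pooled libraries it had 130 UMI in DMSO, 63 with dCA and 73 with BRD-6989. These sums gave a ratio to DMSO of 0.477 for dCA (95% interval 0.347 to 0.649) and 0.459 for BRD-6989 (0.340 to 0.616). The intervals are exact conditional binomial and cover counting error only. With a filter set by the design matrix, chosen after the data had been seen, Psmb9 was tested and had log2 changes of -1.10 ± 0.38 (adjusted p = 0.046) with dCA and -1.15 ± 0.37 (adjusted p = 0.0256) with BRD-6989. Without any filter, the adjusted p-values were 0.0915 and 0.0542.

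Psmb10, the MECL-1 subunit with trypsin-like activity, had levels from 111 to 283 CPM in DMSO (median 135), 42.2 to 145 with dCA (median 105) and 45.8 to 173 with BRD-6989 (median 100.1). The highest DMSO library was that of Poly(I:C), and the 3 ranges overlapped. With BRD-6989, Psmb10 fell by 0.58 ± 0.17 (adjusted p = 0.00703). That adjusted p was 0.604 with the Rn45s share as a covariate and 0.159 in the wells of 60 min and later. With dCA its change was -0.45 ± 0.17 (adjusted p = 0.0533), which missed the threshold, and it was lower in 10 of 12 conditions. It passed without MDP_LPS, R848 or TDB, at -0.51, -0.53 and -0.50.

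**Figure D1:**
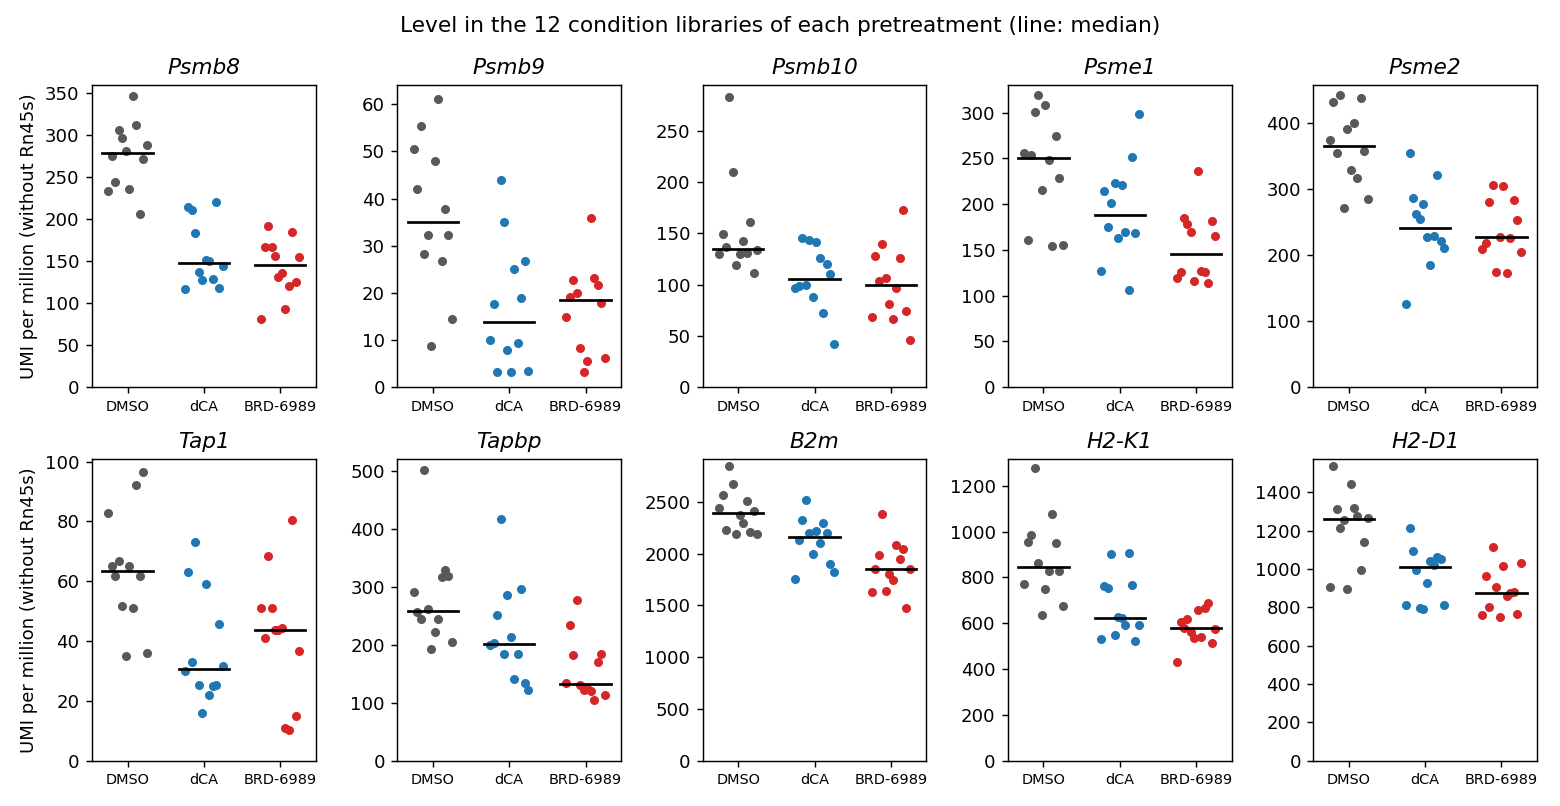
Level of each gene in CPM without Rn45s (vertical axis, from 0) in the 12 summed condition libraries of DMSO, dCA and BRD-6989 (points), with the group median as a line. The Psmb8 points of BRD-6989 all lie below those of DMSO, from 80.9 to 192 against 206 to 347, and the ranges of the other genes overlap. How often ranges part among all genes was not counted.

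The PA28 cap genes differed in how they met the test. Psme2, the beta chain, had levels from 271 to 443 CPM in DMSO (median 366), 127 to 355 with dCA (median 242) and 173 to 307 with BRD-6989 (median 227). It was lower than in DMSO in all 12 conditions with either inhibitor, although the ranges overlapped across conditions. Psme2 fell by 0.52 ± 0.11 (adjusted p = 0.000343) with dCA and fell by 0.59 ± 0.11 (adjusted p = 3.45e-05) with BRD-6989. The dCA call held under all 23 alternatives, and with the Rn45s covariate the BRD-6989 change was -0.69 (adjusted p = 0.139). Psme1, the alpha chain, had levels from 154 to 319.7 CPM in DMSO (median 251), 107 to 299 with dCA (median 188) and 114 to 236 with BRD-6989 (median 146). Psme1 fell by 0.61 ± 0.13 (adjusted p = 0.000467) with BRD-6989, which became -0.21 (adjusted p = 0.837) with the Rn45s covariate. With dCA it was -0.25 ± 0.13 (adjusted p = 0.218). In the MDP wells Psme1 was higher with dCA, at 299 against 155 CPM in DMSO, and without MDP the dCA change was -0.37 (adjusted p = 0.0473).

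Of the peptide-loading genes, Tapbp had levels from 194 to 502 CPM in DMSO (median 259), 123 to 418 with dCA (median 202) and 106 to 278 with BRD-6989 (median 133). Poly(I:C) gave the highest library in each pretreatment. Tapbp fell by 0.81 ± 0.13 (adjusted p = 1.64e-06) with BRD-6989, lower in 12 of 12 conditions, and its adjusted p was 0.177 with the Rn45s covariate. Under dCA the change was -0.32 ± 0.13 (adjusted p = 0.0723), with 10 of 12 conditions lower, and it was -0.41 (adjusted p = 0.0183) without CpG. Tap1 was sparse, with 229 UMI in DMSO, 136 with dCA and 179 with BRD-6989, and had levels from 35.2 to 96.7 CPM in DMSO (median 63.4), 15.9 to 73.1 with dCA (median 30.8) and 10.3 to 80.3 with BRD-6989 (median 43.7). With dCA Tap1 fell by 0.75 ± 0.28 (adjusted p = 0.0499), at the edge of the threshold. The call was lost without any 1 of 8 conditions (NoStim, MDP_LPS, SeV, CpG, Pam3cys, FLA, Zymosan or TDB), where the change lay between -0.64 and -0.75, and with the Rn45s covariate it was -1.01 (adjusted p = 0.0604). With BRD-6989 Tap1 was -0.65 ± 0.27 (adjusted p = 0.0898) and lower in 8 of 12 conditions. Without Zymosan it passed, at -0.77 (adjusted p = 0.0495).

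The class I chains were the most deeply counted members, with 8603 UMI of B2m in DMSO alone. B2m levels ran from 2186 to 2848 CPM in DMSO (median 2393), 1751 to 2520.1 with dCA (median 2163) and 1477 to 2381 with BRD-6989 (median 1852). The highest library was that of Poly(I:C) in each pretreatment, and the ranges overlapped. B2m fell by 0.34 ± 0.05 (adjusted p = 2.02e-07) with BRD-6989, lower in 12 of 12 conditions. Its change with dCA was smaller and missed the threshold, at -0.12 ± 0.05 (adjusted p = 0.0705), with 11 of 12 conditions lower. It passed without MDP_LPS, R848 or Zymosan, at -0.15, -0.14 and -0.14 (adjusted p = 0.0351, 0.0455 and 0.0449). H2-K1 levels ran from 638 to 1276 CPM in DMSO (median 846), 523 to 909 with dCA (median 625) and 431 to 689 with BRD-6989 (median 578). All 12 conditions were lower with dCA and with BRD-6989. H2-K1 fell by 0.32 ± 0.07 (adjusted p = 0.000461) with dCA and fell by 0.56 ± 0.07 (adjusted p = 8.00e-09) with BRD-6989. H2-D1 levels ran from 897 to 1535 CPM in DMSO (median 1260.0), 792 to 1215 with dCA (median 1009) and 749.6 to 1115 with BRD-6989 (median 876). It was lower in 11 and 12 of 12 conditions. H2-D1 fell by 0.25 ± 0.06 (adjusted p = 0.00299) with dCA and fell by 0.40 ± 0.06 (adjusted p = 2.85e-06) with BRD-6989. The BRD-6989 changes of B2m, H2-K1, H2-D1 and Psmb8 passed with the Rn45s share as a covariate too.

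**Figure D2:**
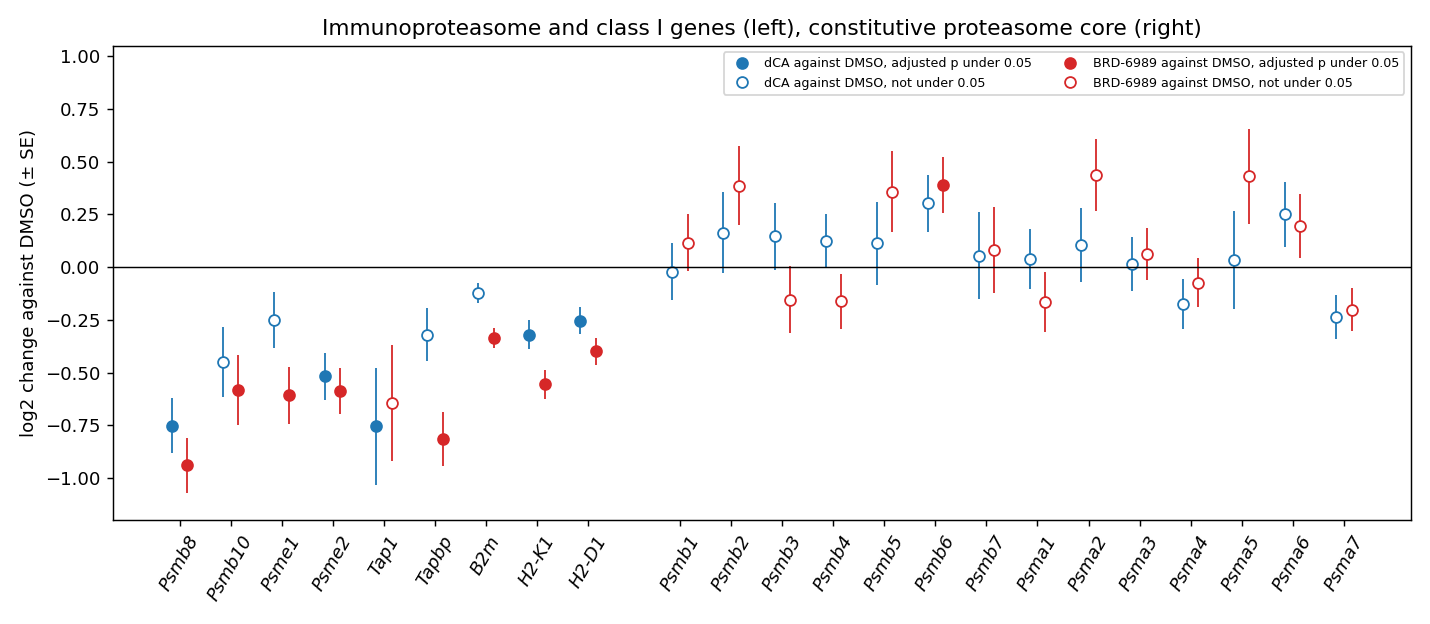
Log2 change against DMSO ± SE (vertical axis) with dCA (blue) and BRD-6989 (red) for the 9 tested genes on the left and the 14 constitutive proteasome core genes on the right, with filled points for an adjusted p under 0.05. The 9 genes lie between -0.94 and -0.12, and the 14 core genes between -0.24 and 0.44.

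The number of dCA calls depended on the analysis. It was 5 of 9 as given above, 8 of 9 with DESeq2 or with library totals in place of TMM scaling, and 3 of 9 without the condition as a block. Library totals also moved the dCA calls over all genes toward lower, with the shares given further on. Counts over all genes with DESeq2 or without the block are not given here. For BRD-6989 the number was 8 of 9 with each of these settings, and 4 of 9 with the Rn45s share as a covariate, where the genes called among all went from 1197 to 194.

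The inhibitors were also set against each other, 1 pair at doses that differ (100 nM and 1 µM). Of the 9 genes, 3 were higher with dCA than with BRD-6989 and none lower, against 2.2% higher among all genes tested. Tapbp differed by 0.49 ± 0.13 (adjusted p = 0.0201), with 219.7 CPM on average with dCA and 158 with BRD-6989. B2m differed by 0.21 ± 0.05 (adjusted p = 0.00389), with 2122 against 1870.0. H2-K1 differed by 0.24 ± 0.07 (adjusted p = 0.0471), with 678 against 582. The H2-K1 call was lost in 14 of 23 alternatives, among them 8 of the 12 that leave out 1 condition (all but SeV, R848, TDB and MDP). Tapbp lost its call in 7 of 23, and without CpG, Poly(I:C) or Zymosan only B2m passed. No member passed in the wells of 60 min and later or without the condition as a block, and with total reads B2m alone did. For the 6 genes that missed the threshold, 95% intervals of the difference (from its SE) ran from -0.07 to 0.45 for Psmb8, from -0.20 to 0.47 for Psmb10 and from -0.15 to 0.29 for Psme2. They ran from 0.09 to 0.63 for Psme1, from -0.67 to 0.45 for Tap1 and from 0.02 to 0.27 for H2-D1.

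Condition by condition, the 10 genes moved unevenly. The ratio of each inhibitor library to the DMSO library of the same condition was taken as log2 after adding 10 CPM, which understates changes of low genes. With dCA, all 10 genes were lower in NoStim, Pam3cys, FLA and TDB, and 7 were lower in MDP_LPS, the fewest. With BRD-6989, all 10 were lower in 8 conditions, and 8 were lower in Zymosan and in MDP. The median ratio over the 10 genes ran from -0.73 in NoStim to -0.23 in Zymosan with dCA, and from -0.82 in NoStim to -0.32 in Zymosan with BRD-6989. Single genes ranged more widely. Psmb8 in Pam3cys wells was at 347 CPM in DMSO, 151 with dCA and 93.6 in BRD-6989, a log2 ratio of -1.78 for the last. In Zymosan wells the same gene was at 206, 221 and 185. H2-K1 in Poly(I:C) wells was at 1276, 900.5 and 619. Each of these values rests on 1 library and has no replicate.

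**Figure D3:**
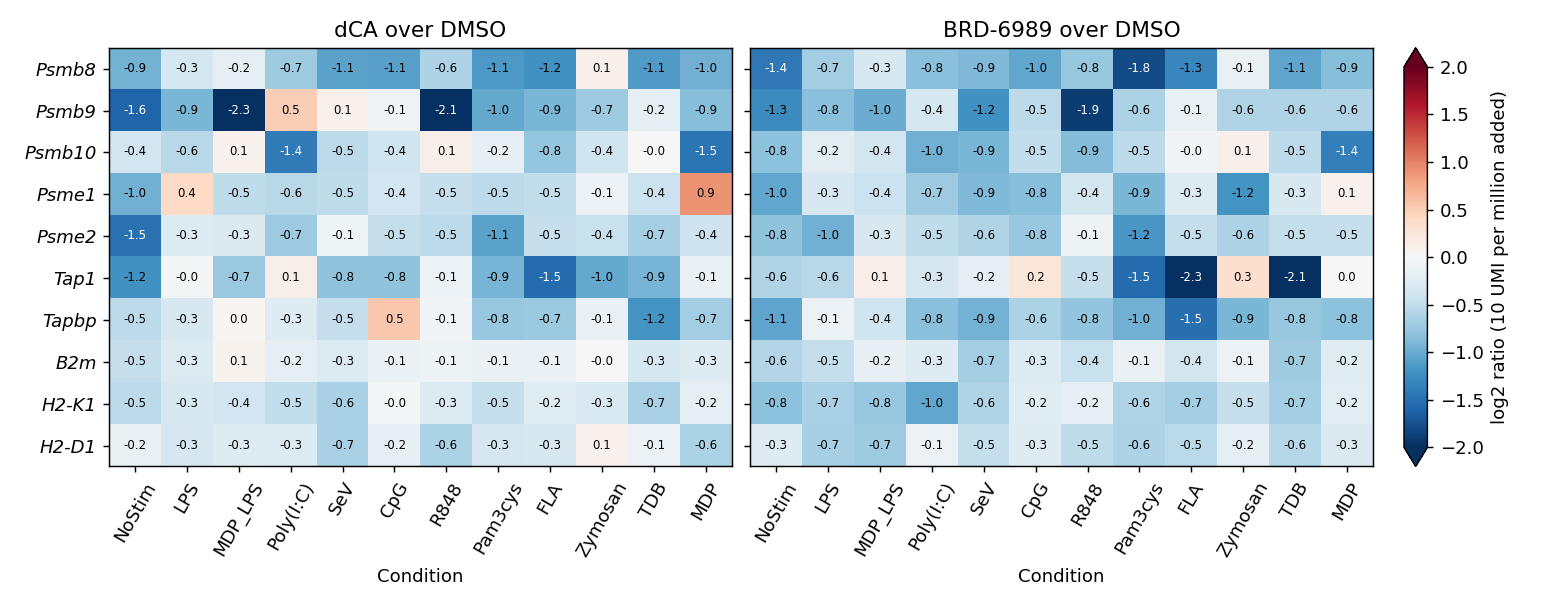
Log2 ratio of dCA (left) and BRD-6989 (right) to DMSO for each gene (rows) in each condition (columns), 10 CPM added, with colours from -2 (blue) to 2 (red) and 1 library behind each side of a ratio. Blue fills all 10 rows in NoStim for both inhibitors, and the ratios of Psmb9 and Tap1, the genes with fewest UMI, reach -2.30 and -2.33.

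Whether the inhibitors acted differently where interferon is induced was tested as an interaction, the effect with LPS, MDP_LPS, Poly(I:C) and SeV less the effect in the other 8 conditions. No gene passed for either inhibitor, 0 of 9 members and 0% of the 5691 genes tested, by edgeR or, for the members, by DESeq2. At an unadjusted p under 0.05, edgeR had 267 of the 5691 genes for dCA and 244 for BRD-6989, and among the members 0 for dCA and 1 for BRD-6989. That gene was H2-K1, at -0.29 ± 0.14 (adjusted p = 0.9998). For Psmb8 the differences were 0.32 ± 0.27 with dCA and 0.37 ± 0.27 with BRD-6989, less than 2 SE from 0.

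In unstimulated cells, the 8 wells of each pretreatment were compared singly with time as a block. All 9 tested genes had negative changes with both inhibitors, and 0 of 9 passed with either, where 0.908% of all genes passed with dCA and 1.06% with BRD-6989 in either direction. At an unadjusted p under 0.05, edgeR had 2 members with dCA and 4 with BRD-6989, against 444 and 483 of all 5834 genes. DESeq2 called B2m and Psme2 with dCA and B2m and H2-K1 with BRD-6989. B2m ran from 1424 to 3129 CPM in DMSO (median 2646), 1154 to 2024 with dCA (1825) and 1135 to 2299.8 with BRD-6989 (1514), and the groups overlapped. Its changes were -0.47 ± 0.16 (adjusted p = 0.203) and -0.54 ± 0.16 (adjusted p = 0.0551). Psme2 ran from 176 to 621 CPM in DMSO (median 344), 0 to 254 with dCA (119) and 51.1 to 396 with BRD-6989 (188), with changes of -1.54 ± 0.54 (adjusted p = 0.211) and -0.72 ± 0.50 (adjusted p = 0.817). Psmb8 ran from 105 to 523 CPM in DMSO (median 244), 26 to 248 with dCA (90.8) and 26.9 to 169.9 with BRD-6989 (69.1), on 65, 35 and 27 UMI, and its changes were -0.93 ± 0.65 (adjusted p = 0.814) and -1.47 ± 0.66 (adjusted p = 0.484).

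The response to each stimulus was tested against NoStim in the summed wells of 60 to 180 min, with the 3 pretreatments as blocks. Each stimulus had the same well number in all 3, so the blocks do not separate a stimulus from its well position. All 10 genes were tested, and of 110 gene and stimulus pairs 11 passed, each of them higher with the stimulus. Poly(I:C), a double-stranded RNA mimic, raised 4 of 10 genes, against 2.06% of 6311 genes tested. LPS, the TLR4 ligand, raised 3 (3.41% of all genes), and with Zymosan, a yeast wall preparation, 2 were called higher (2.68%). Pam3cys, a TLR2 ligand, raised 1 (1.76%), and FLA raised 1 (0.951%). None of the 10 passed with MDP_LPS, SeV, CpG, R848, TDB or MDP, where 3.23%, 0.19%, 1.43%, 2.17%, 0.111% and 0.0792% of all genes were higher. At an unadjusted p under 0.05 edgeR had 6, 3, 0, 2, 0 and 1 members in these 6, against 769, 338, 590, 662, 322 and 370 of all 6311 genes. DESeq2 called 3 members with MDP_LPS (Psmb8, B2m and H2-D1) and 0 in the other 5.

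Poly(I:C) gave the highest mean level among the conditions for Tapbp, B2m and H2-K1. The same held for Psmb10, Psme2 and Tap1, which did not pass, and for Psme2 the Zymosan mean was nearly equal. In DMSO, dCA and BRD-6989, Tapbp stood at 573, 417 and 340.1 CPM with Poly(I:C) and at 299.7, 198 and 119 without a stimulus, a log2 rise of 1.21 ± 0.32 (adjusted p = 0.0183). H2-K1 was at 1444, 954 and 724 against 795, 537 and 423, a rise of 0.89 ± 0.18 (adjusted p = 0.000953). B2m stood at 3043, 2345 and 2373 against 2565, 1752 and 1470.2 and rose by 0.51 ± 0.12 (adjusted p = 0.00897). Tapbp, H2-K1 and B2m lay above NoStim in each pretreatment. Yet the B2m level of NoStim in DMSO exceeded the Poly(I:C) levels with dCA and BRD-6989. H2-D1 rose by 0.58 ± 0.16 (adjusted p = 0.0356). The Poly(I:C) calls of Tapbp and H2-D1 were lost in 6 and 7 of 11 alternatives, and whichever pretreatment was left out. Those of B2m and H2-K1 were lost in 4 and 2.

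With LPS, H2-D1 had its highest mean level, at 1643, 1373 and 1098 CPM in the 3 pretreatments against 991, 814 and 620.2 in NoStim, and rose by 0.89 ± 0.16 (adjusted p = 0.000109). H2-K1 rose by 0.70 ± 0.18 (adjusted p = 0.0119) and B2m by 0.40 ± 0.12 (adjusted p = 0.0485). In the DMSO wells alone these changes were 0.30 and 0.02, and B2m stood at 2567, 2258 and 2092 with LPS. The B2m call was lost in 8 of 11 alternatives and that of H2-K1 in 6. With LPS and MDP together none of the 10 passed, and B2m was at 0.40 ± 0.12 (adjusted p = 0.0506), Psmb8 at 1.16 ± 0.35 (adjusted p = 0.0506) and H2-D1 at 0.54 ± 0.16 (adjusted p = 0.0528). With Zymosan H2-K1 was called at 0.64 ± 0.18 (adjusted p = 0.0346) and B2m at 0.42 ± 0.12 (adjusted p = 0.0414). B2m was at 2174, 2444 and 2501 with Zymosan, below NoStim in DMSO and above it with both inhibitors, and in the DMSO wells alone its change was -0.21. Its call was lost, or its sign turned, in 8 of 11 alternatives, and the H2-K1 call was lost in 6 (0.29 in the DMSO wells alone). Pam3cys raised H2-D1 by 0.60 ± 0.16 (adjusted p = 0.0359), and FLA raised H2-K1 by 0.70 ± 0.18 (adjusted p = 0.0347). The Pam3cys call was lost in 8 of 11 alternatives and the FLA call in 7, and both were lost whichever pretreatment was left out.

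The immunoproteasome and cap genes did not pass with any stimulus. Psmb8 had its lowest mean level in NoStim (161, 125 and 73.5 in DMSO, dCA and BRD-6989) and was above it in all 3 pretreatments with 9 of the 11 stimuli. The largest of its changes was that of MDP_LPS, and with Poly(I:C) it was 0.92 ± 0.35 (adjusted p = 0.2). Psme2 was above NoStim in all 3 pretreatments with 7 of 11 stimuli, at 502, 286 and 380.3 with Poly(I:C) against 357, 146 and 188, a change of 0.86 ± 0.28 (adjusted p = 0.0868). Psmb10 was above in all 3 with 6, Psme1 with 3, Psmb9 with 1 and Tap1 with 0. Tap1 stood at 104 CPM in the NoStim wells of DMSO behind this count, where the well of 90 min gave 12 of 18 UMI. In the wells of 120 to 180 min Tap1 was at 18.2, 0 and 54.9 CPM in NoStim (DMSO, dCA and BRD-6989), and LPS (137, 104 and 81.2), MDP_LPS, R848 and Zymosan were above it in all 3 pretreatments. These NoStim levels rest on 1 UMI each in the DMSO wells of 120 and 180 min and 7 in the BRD-6989 well of 150 min. With dCA at 0, any UMI under a stimulus stood above NoStim, and these late levels were not tested on their own. Without dCA, 2 of the pairs passed, and without BRD-6989 also 2. None of the 8 members tested passed with any stimulus in the DMSO wells alone, and 4 of the pairs passed with library totals, where the median gene moved by -0.12 with LPS and -0.11 with MDP_LPS. H2-D1 with LPS and H2-K1 with Poly(I:C) passed whichever pretreatment was left out.

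**Figure D4:**
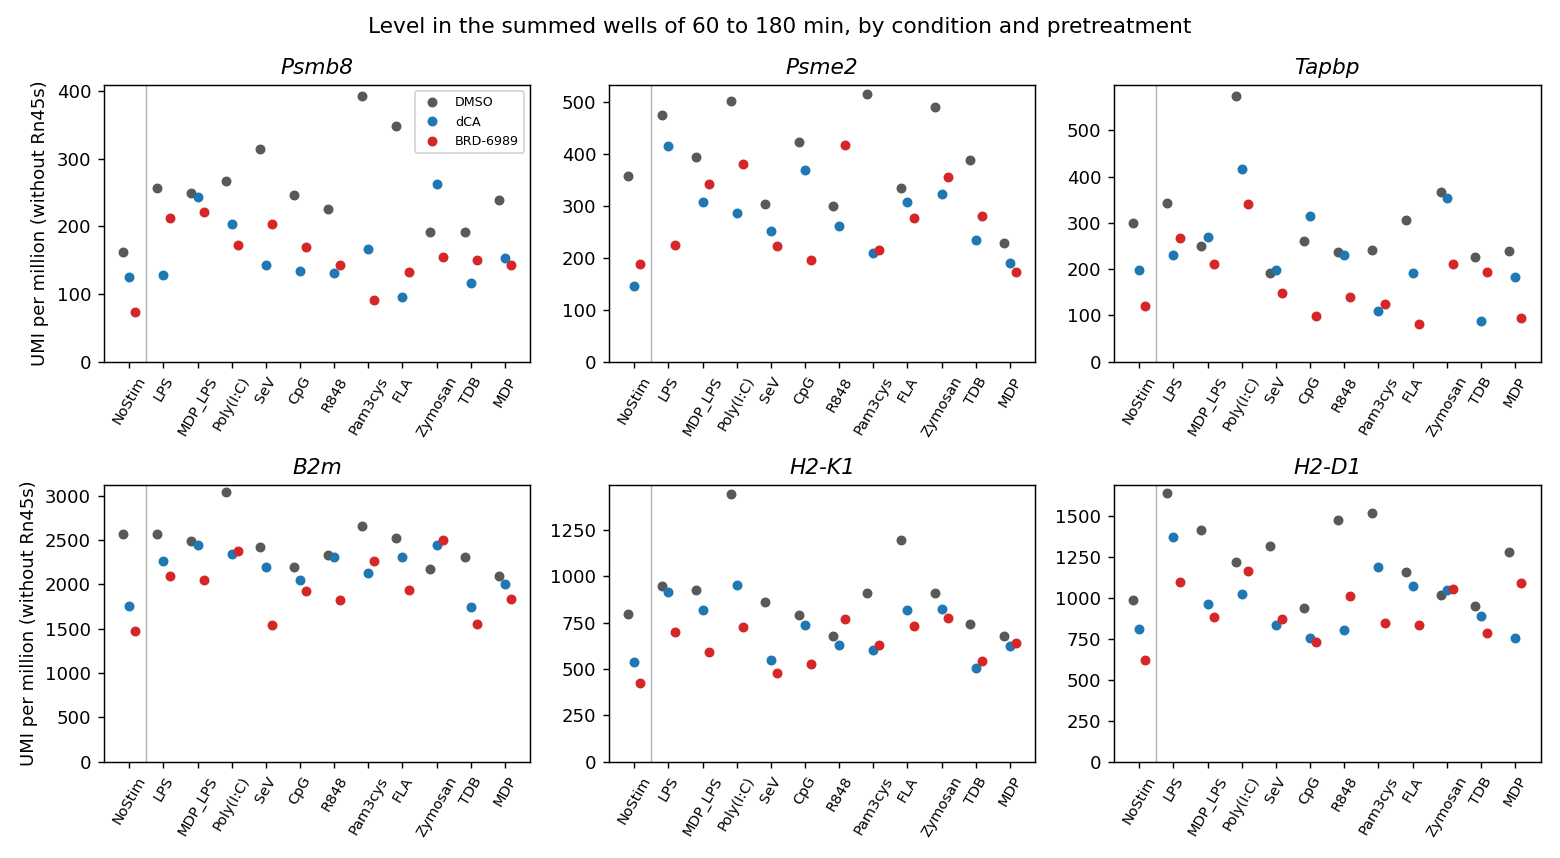
Level in CPM (vertical axis, from 0) of 6 genes in the summed wells of 60 to 180 min, by condition (horizontal axis, NoStim left of the line) and pretreatment (colour), with 1 library a point. The Poly(I:C) points of Tapbp and H2-K1 lie above the NoStim points of the same colour, and the DMSO points lie above those of the inhibitors in most conditions.

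Time was read as the change from early wells (15, 30 and 45 min) to late wells (120, 150 and 180 min) under a stimulus, less the same change in NoStim. Of the 9 genes tested, 0 passed with any of the 11 stimuli by edgeR, and 0 by DESeq2. Among all 4759 genes, 0.693% were higher with LPS, 0.862% with MDP_LPS, 0.546% with Poly(I:C), 0.651% with Zymosan, 0.252% with R848 and 0.21% with Pam3cys. The shares were 0.126% with SeV, 0.042% with CpG and 0.021% each with FLA, TDB and MDP. At an unadjusted p under 0.05 edgeR had 5 members with LPS, 3 with MDP_LPS, 2 each with Pam3cys and Zymosan and 1 each with CpG and FLA. Over all 4759 genes the numbers for these stimuli, in that order, were 428, 396, 330, 376, 301 and 241. The smallest adjusted p was that of B2m with LPS, at 0.68 ± 0.23 (adjusted p = 0.199). Its level went from 1387 early to 2523 late with BRD-6989, from 1908 to 2593 with dCA and from 2562 to 2458 in DMSO. So the late LPS level was above the early one with the inhibitors and below it in DMSO. Without DMSO, B2m passed with LPS and with Zymosan, and no other pair did.

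Other genes of the pathway, from lists chosen with earlier results of these data known, are given by count. Of the 14 constitutive core genes (Psma1 to Psma7 and Psmb1 to Psmb7), 0 passed with dCA by edgeR. An unadjusted p under 0.05 with dCA was found for 2 of them, against 1614 of all 5691 genes. With BRD-6989 1 core gene rose and 0 fell, where 598 of all 5691 genes rose. That gene was Psmb6, at 0.39 ± 0.13 (adjusted p = 0.0289). The list's median changes were 0.08 and 0.10. Of 17 tested genes of 25 others in antigen presentation, 2 fell and 0 rose with dCA, and 5 fell and 1 rose with BRD-6989, with medians of -0.09 and -0.31. Over all genes 8.12% fell with dCA, and 10.5% fell and 598 of 5691 rose with BRD-6989. Nlrc5, the transactivator of class I genes, fell by 0.94 ± 0.34 (adjusted p = 0.0452) with dCA and fell by 1.28 ± 0.34 (adjusted p = 0.00413) with BRD-6989, from 46.4 CPM on average in DMSO. The non-classical class I gene H2-Q4 fell by 0.72 ± 0.18 (adjusted p = 0.00173) with BRD-6989, and Pdia3, a disulphide isomerase of the peptide-loading complex, rose by 0.46 ± 0.16 (adjusted p = 0.0302). The protease gene Sppl2a fell by 0.57 ± 0.13 (adjusted p = 0.00103) and fell by 0.41 ± 0.13 (adjusted p = 0.0187).

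Of 20 tested regulators of 24, 3 fell with dCA, 6 fell with BRD-6989 and 0 rose with either, with medians of -0.26 and -0.28. Nlrc5 is on this list too and is counted in both. Irf8, a myeloid IRF factor, fell by 0.82 ± 0.18 (adjusted p = 0.000574) with dCA and fell by 0.88 ± 0.18 (adjusted p = 0.000151) with BRD-6989. Irf7, a driver of type I interferon genes, fell by 1.84 ± 0.16 (adjusted p = 2.47e-13) with BRD-6989 and was at -0.35 ± 0.15 (adjusted p = 0.103) with dCA. It was higher with dCA than with BRD-6989 by 1.48 ± 0.17 (adjusted p = 4.42e-09). Jak1, a kinase of interferon receptors, fell by 0.46 ± 0.12 (adjusted p = 0.00376) with dCA, and Ifngr1, a chain of the interferon-gamma receptor, fell by 0.67 ± 0.19 (adjusted p = 0.00619) with BRD-6989. Irf1, an interferon-induced activator of class I and immunoproteasome genes, rose with 7 stimuli, by 3.39 ± 0.45 (adjusted p = 8.83e-08) with LPS and 2.79 ± 0.45 (adjusted p = 2.33e-05) with Poly(I:C). Its changes with the inhibitors were -0.38 ± 0.17 (adjusted p = 0.135) and -0.11 ± 0.17 (adjusted p = 0.71). None of 10 MHC class II genes had enough UMI to be tested.

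As a description, each gene's log2 level was set against the mean of the other 9 over the 36 libraries, which share library pools and differ in depth. Pearson's r was between 0.50 for Psmb9 and 0.80 for Psmb8. Within a pretreatment (n = 12 libraries) it was -0.08, 0.62 and 0.62 (DMSO, dCA, BRD-6989) for Psmb8, and 0.77, 0.43 and 0.48 for H2-K1. Of 3564 named nuclear genes that averaged 50 CPM or more, those most like the members' mean over the 36 libraries were Tspo (r = 0.85), Ifit3 (0.82), Ifit2 (0.81), Pld4 (0.79) and Slc16a3 (0.78). These r pool pretreatments whose means differ, for example 179, 61.5 and 29.4 CPM for Ifit3 and 420.5, 296 and 271 for Tspo in DMSO, dCA and BRD-6989, so they include the difference between pretreatments.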

How the data were processed

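Gene expression was measured by 3′ digital gene expression in single wells of mouse bone marrow-derived macrophages. The authors deposited UMI counts and total read counts per gene and well, whole numbers that are not normalized. Per the submitters' processing notes, BWA, edgeR and the build mm10 were used, while versions, the annotation and how reads were counted are not stated there or in the labels. The deposited reporter tables were not used. Samples were grouped by pretreatment, stimulus and time from the labels. No well was left out.

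Rn45s was removed before library sizes were taken. Wells were summed to 36 libraries (8 times each), to 36 of the wells of 60 min and later, or to 72 of early and late wells, and unstimulated wells were used singly. Genes passed edgeR's filterByExpr (minimum count 10, by group), or a mean of 1 UMI in unstimulated wells. Tests were 2-sided and used edgeR 4.0.16 (TMM, quasi-likelihood F test) in R 4.3.3, with Benjamini-Hochberg adjustment over all genes tested, and DESeq2 1.42.0 was an alternative. The condition, the pretreatment or the time entered as the block, since the labels give these to matched wells of each group. Other alternatives were Rn45s kept, library totals without TMM, total reads, the Rn45s share as a covariate, wells of 60 min and later, single wells, other filters, no block and leaving out each condition, pretreatment or time. The filter by the design matrix was added after the data had been seen. Tests were tried on simulated data. The 10 members are named throughout, and of each list up to 4 genes of smallest p per comparison. Members and lists were chosen with earlier results of these data known. Promoters came from RefSeq on GRCm38.p6, where all 10 genes matched by symbol.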

Additional observations from a re-analysis of the deposited data

Results flagged for a closer look

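Within the 8 unstimulated wells of a pretreatment, 6 of 30 gene and pretreatment groups held a well whose gap to its neighbour was larger, as a share of the group's range, than Dixon's 95% value for 8 samples, which chance gives in about 1 group in 20 for normally distributed values. These counts are sparse, and the rate for such counts was not tested. All 6 were the highest wells of their group, on 3 to 60 UMI, and the cause was not tested. Psmb9 was at 84.8 CPM in the BRD-6989 well of 30 min, on 3 UMI, where 5 of the 8 wells were at 0. Psmb10 was at 383 in the DMSO well of 45 min, on 11 UMI, and at 330.5 in the dCA well of 90 min, on 8 UMI. Psme1 was at 863 in the DMSO well of 15 min, on 37 UMI, where the next DMSO well was at 244. In the DMSO well of 90 min, Tap1 was at 423, on 12 UMI, and H2-D1 was at 2113, on 60 UMI, where the next well was at 914.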

How the results depend on the processing

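Of 114 alternative values for the counts of members called, 94 stayed within 1.5 times the main count, 14 were lower and 6 higher. Of 733 for single genes, 604 kept their direction and side of the threshold. The causes of the changes were not tested. For BRD-6989 against DMSO, the 8 calls became 4 with the Rn45s share as a covariate, and leaving out 1 condition gave 8 to 9. For dCA against DMSO, the 5 calls became 8 with DESeq2, 8 with library totals and 3 with no condition block, and 4 to 7 with 1 condition left out. For dCA against BRD-6989, the 3 calls became 0 with no condition block, 1 with total reads, 0 in wells of 60 min and later and 1 to 3 with 1 condition left out. In unstimulated wells, the 0 calls became 4 with DESeq2, 1 with library totals and 0 to 1 with 1 time left out. The 11 stimulus calls became 0 in DMSO wells alone, 4 with library totals, 1 with no pretreatment block, 7 with total reads and 2 to 9 with 1 pretreatment left out. The 0 time calls became 0 to 2, and the 0 interaction calls stayed 0.

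Signs turned for B2m with Zymosan in DMSO wells alone (-0.21), and for Tap1, dCA against BRD-6989, with the Rn45s covariate (0.30), without Zymosan (0.0499) and in wells of 60 min and later (0.0579). Over all genes, the calls for BRD-6989 went from 1197 to 194 with the Rn45s covariate, 520.0 with single wells and 774 in later wells. Those for dCA went from 1021 to 601 and 514 with the first pair of settings. Library totals in place of TMM moved the share of calls that were higher from 54.8% to 41.2% for dCA against DMSO and from 66.5% to 50.9% for dCA against BRD-6989. Wells of 21810 UMI or more limit single-well values of the sparse genes Psmb9 and Tap1.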

Other observations

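Class I genes beside the 2 classical heavy chains, were chosen here after their values were seen. With BRD-6989, H2-Q7 fell by 1.03 ± 0.36 (adjusted p = 0.0308) and H2-T23, which encodes the Qa-1 molecule, fell by 0.31 ± 0.11 (adjusted p = 0.0325) on the log2 scale by edgeR. H2-T22 was at -0.67 ± 0.25 (adjusted p = 0.0521) and H2-T10 at -0.05 ± 0.26 (adjusted p = 0.926). With dCA, H2-T23 was at -0.29 ± 0.11 (adjusted p = 0.0638), H2-Q7 at -0.41 ± 0.35 (adjusted p = 0.495), H2-T22 at -0.01 ± 0.25 (adjusted p = 0.993) and H2-T10 at 0.18 ± 0.26 (adjusted p = 0.723). Tap2, the partner chain of Tap1, was at -0.63 ± 0.34 (adjusted p = 0.222) with dCA and -0.80 ± 0.34 (adjusted p = 0.0883) with BRD-6989. H2-T23 rose with LPS by 1.07 ± 0.28 (adjusted p = 0.014). Reads of these genes may be shared with H2-K1, H2-D1 and each other.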
